A study of Homo sapiens with 18 samples.

Results

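Ribosome biogenesis was followed through 45 genes whose products make and assemble ribosomes, 45 of the 23411 gene symbols counted in each library. They were chosen by name from what is known of their products, with no threshold on measured values but with earlier results of these data known, and all 45 were found in the files and passed the filter on low counts in every comparison. One is the transcription factor MYC, 4 encode subunits of RNA polymerase I, 6 belong to the small nucleolar ribonucleoproteins (snoRNPs) and enzymes that modify ribosomal RNA (rRNA), 14 are assembly factors of the small ribosomal subunit, 15 are assembly factors of the large subunit and 5 are other nucleolar proteins, called nucleolar chaperones below.

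The mRNA was measured in ARPE-19 cells, a spontaneously immortalised line of human retinal pigment epithelium. Control cells carried a Cas9 lentivirus that lacked a guide RNA. NRF2 ΔC cells, the line labelled C1, carried Cas9 and a guide against exon 5 of NFE2L2, the gene of the transcription factor NRF2, and both of their alleles encode an NRF2 that ends early. Cells of each line were labelled untreated or received 0.2 mM H2O2 (hydrogen peroxide, an oxidant) or 1 mM NACET (N-acetylcysteine ethyl ester, a cysteine donor), which gave 6 groups of 3 samples, 18 in all. The sample labels give 2 hours of treatment after 22 hours in 1 % serum, whereas the text of the series gives 8 hours after 40 hours in 10 % serum. The paper on these data also gives 8 hours, begun 40 hours after seeding, and 10 % serum. Only the sample labels differ, and why they do is not stated. NRF2 ΔC is a single line, so the edit cannot be told apart from other differences between the 2 lines, and the sources do not say whether replicates were separate cultures, so that p-values measure the spread between these samples.

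Ribosome assembly starts in the nucleolus, where RNA polymerase I transcribes a long rRNA precursor. SnoRNPs guide the methylation and pseudouridylation of this precursor, and large sets of assembly factors fold, cut and pack it with ribosomal proteins into the small and the large subunit. MYC binds, with its partner MAX, the E-box sequence CACGTG near many of the genes concerned, and the nucleolus is known to respond to oxidants and other stress.

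The start sites of several of these genes carry that E-box, and the windows of the genes that are described most closely below are printed for this reason. RefSeq sequences of GRCh38.p14, from 250 bases before to 50 bases after each start, matched 36 of the 45 genes, and 13 of the 36 promoters (36.1 %) held CACGTG, which reads the same on both strands. The capitals mark the E-box, and each line runs 5′ to 3′ on the gene's strand.
FBL, chr19:39846356-39846385, minus strand: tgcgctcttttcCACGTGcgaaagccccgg
NOP14, chr4:2963374-2963403, minus strand: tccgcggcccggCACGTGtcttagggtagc
RRP9, chr3:51941892-51941921, minus strand: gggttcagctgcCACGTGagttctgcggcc
WDR43, chr2:28894658-28894687, plus strand: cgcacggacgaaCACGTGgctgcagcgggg
BYSL, chr6:41921515-41921544, plus strand: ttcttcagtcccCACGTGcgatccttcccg
PNO1, chr2:68157885-68157914, plus strand: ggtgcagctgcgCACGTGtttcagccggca
NOP2, chr12:6568242-6568268, minus strand: aggtccggattgCACGTGgagggccgc

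The other 6 promoters with the motif were those of NAT10, UTP20, IMP4, NOC3L, PES1 and GNL2. The motif was in 10.1 % of the 9535 matched promoters of genes tested, in 7.43 % of all 27305 promoters, in 29 of 84 promoters (34.5 %) of other ribosome biogenesis factors and in 3 of 63 promoters (4.76 %) of cytosolic ribosomal proteins. The 13 promoters held 14 E-boxes, and 13 of these lay between 15 bases before and 35 bases after the start. A core of the antioxidant response element that NRF2 binds, TGACNNNGC on either strand, was in 3 of the 36 promoters (8.33 %), those of WDR75, GNL2 and NCL, against 15 % of tested genes and 13.6 % of all. The ETS motif CCGGAAGT on either strand was in 5 of 36 (13.9 %), against 8.68 % of tested genes and 4.44 % of all. None of these motifs contains another, and a match is only a run of letters in this window.

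Counts on genes ranged from 16673306 to 25951154 per library. The labelled cell type was checked against markers. The epithelial keratin genes KRT8 and KRT18 had at least 428 and 260 CPM (counts scaled to a common library size, with composition normalised) in every library, and the pigment epithelium factors MITF and OTX2 at least 64.9 and 105 CPM. Of the other 7 of 9 markers of pigment epithelium, RPE65 had at most 1 count in a library, TTR at most 2, RLBP1 at most 8 and TYR at most 12, while SERPINF1 had 14 to 39 counts, PMEL 31 to 65 and BEST1 4 to 83 (at most 3.54 CPM). Of markers of other cells, PTPRC (leukocytes) had at most 1 count, RBFOX3 (neurons) at most 8 and PECAM1 (endothelium) at most 3, but VWF, also of endothelium, had 3 to 34 counts, at most 1.51 CPM. NFE2L2 itself had 121.6, 126 and 125.8 CPM in untreated control cells and 124.2, 125.6 and 127.9 CPM in untreated NRF2 ΔC cells, which does not check the edit, since reads are counted over the whole gene.

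Some of these markers moved with the treatments. With H2O2 KRT8 and KRT18 fell in control cells, by 0.49 ± 0.086 and 0.53 ± 0.087 (log2 scale, SE, edgeR adjusted p = 0.0123 and 0.00937). MITF fell with H2O2 in NRF2 ΔC cells, by 0.74 ± 0.19 (edgeR adjusted p = 0.0388). There the changes of KRT8, KRT18 and TJP1 were all below 0, with a median of -0.43, but edgeR called none. DESeq2 called 1 of these 3 lower, and a fit with the replicate number as a block called all 3. Of all genes tested they called 1245 and 3344 of 13543 lower. BEST1, a chloride channel gene of pigment epithelium, rose from 0.4891, 0.3858 and 0.5015 to 1.355, 1.664 and 1.471 CPM in control cells and from 0.3415, 0.194 and 0.1845 to 3.444, 2.976 and 3.544 CPM in NRF2 ΔC cells with H2O2 (1.70 ± 0.26 and 3.76 ± 0.32, log2 scale, SE, edgeR adjusted p = 0.00751 and 0.00118). The summed CPM of the 9 pigment epithelium markers was 311 to 337 in untreated control libraries, 248 to 274 with H2O2 and 232 to 251 with NACET, and 277 to 328, 191 to 241 and 199 to 210 in NRF2 ΔC cells. That of KRT8, KRT18 and TJP1 was 1182 to 1232, 869 to 932 and 1020 to 1128 in control and 1145 to 1292, 896 to 1001 and 1056 to 1250 in NRF2 ΔC cells. With NACET, 5 of the pigment epithelium markers and all 3 others passed the filter on low counts in the control line. In the edited line 4 and 3 did. None of those tested was called with NACET in edgeR (2 had an unadjusted p under 0.05 in each line), and DESeq2 called 2 lower in NRF2 ΔC cells. A fit with the replicate number as a block called 2 pigment epithelium and 2 epithelial markers lower in the control line. For the edited line it called 2 and 1 lower. Of all genes tested this fit called 2817 of 13696 and 2449 of 13542 lower. The part of these shifts in the results below was not tested.

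The 45 genes took a larger share of the library with H2O2 in both lines. In control cells they held 0.41, 0.463 and 0.511 % of the counts on genes when untreated, 0.64, 0.704 and 0.694 % with H2O2 and 0.534, 0.576 and 0.609 % with NACET. In NRF2 ΔC cells the shares were 0.405, 0.526 and 0.581 % untreated, 0.665, 0.849 and 0.773 % with H2O2 and 0.53, 0.632 and 0.66 % with NACET. In both lines the H2O2 libraries lay above all untreated ones, while the NACET libraries lay above the untreated ones in control cells and overlapped with them in NRF2 ΔC cells. In RNA pooled from many cells, a change in which cells are present and a change in RNA per cell cannot be told apart.

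**Figure D1:**
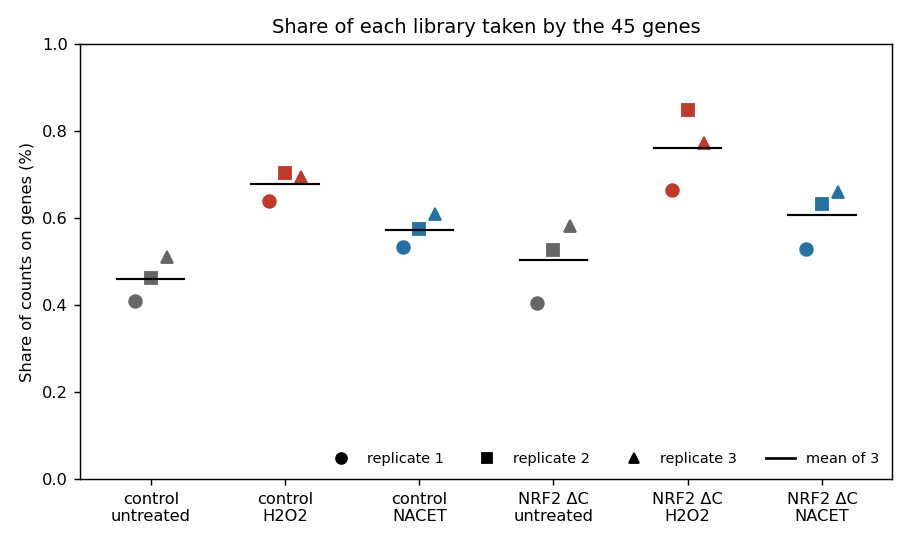
Share of the counts on genes taken by the 45 genes, in %, in each of the 18 libraries. Symbols are replicates 1, 2 and 3, and bars are means of 3. Shares run from 0.405 % in an untreated to 0.849 % in an H2O2 library of NRF2 ΔC cells, and replicate 1 is the lowest in every group.

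Most of the 45 genes followed 1 order of mean levels, untreated below NACET below H2O2. This held for 42 of 45 in control cells (93.3 %, against 20.2 % of 13691 genes tested) and for 43 of 45 in NRF2 ΔC cells (95.6 %, against 23.4 %). The exceptions were MYC, FBL and NOP14 in control cells and NOP14 and NOC4L in NRF2 ΔC cells. Replicates deviated in a shared way. Replicate 1 had the lowest level of its group in all 6 groups for 22 of the 45 genes (48.9 %), against 11.9 % of all genes tested, and what the replicate numbers mark is not stated. For that reason, fits that took the replicate number as a block are given where they moved a result.

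**Figure D2:**
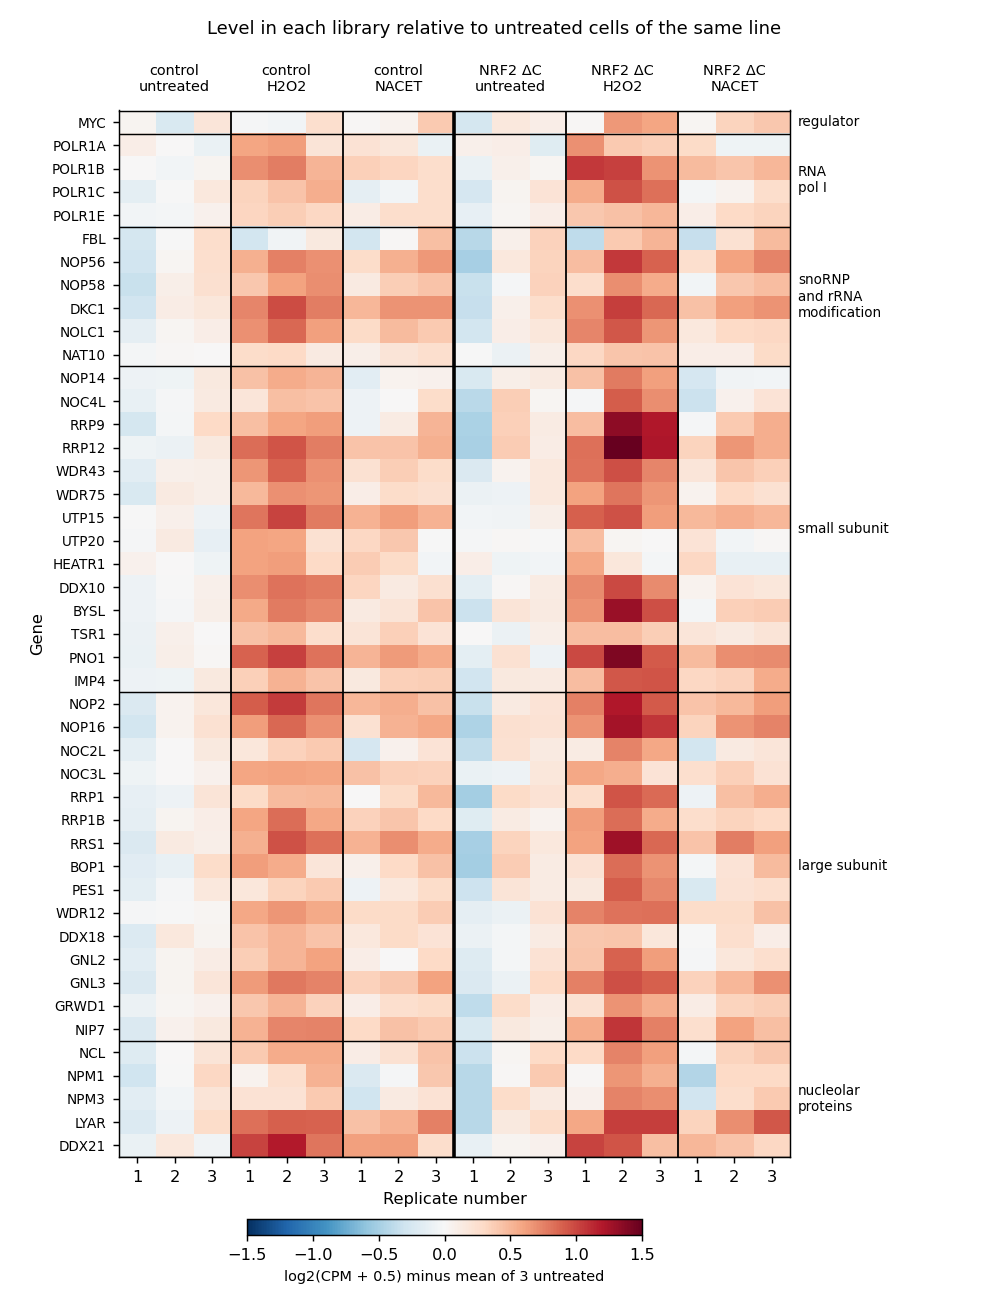
Level of each gene (rows, by role) in each library (columns), as log2(CPM + 0.5) minus the mean of the 3 untreated libraries of the same line. Red is above and blue is below that mean. The H2O2 columns are red in nearly every row of both lines, the NACET columns are paler, and the row of FBL follows the replicates more than the treatments.

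H2O2 raised most of these genes in control cells. A gene was called when edgeR's quasi-likelihood test gave a Benjamini-Hochberg adjusted p under 0.05 over all genes tested. Of the 45 genes 36 rose and none fell, whereas 7.06 % of 13691 genes tested were called higher, 6.16 % lower and 13.2 % in either direction. The median log2 fold change over the 45 was 0.55, against -0.004 over all genes, 44 of 45 changes were above 0, and 20 of the risen genes had a log2 fold change of at least 0.6, as did 2.96 % of genes tested. For 41 of 45 genes the 3 H2O2 libraries lay above all 3 untreated ones, as for 18 % of genes tested. With the replicate number as a block 43 rose (24.1 % of genes tested did), and 36 rose in DESeq2 (8.76 %). The count fell to 14 without H2O2 replicate 2, to 20 without untreated replicate 2 and to 23 without untreated replicate 1 or H2O2 replicate 1.

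In NRF2 ΔC cells 24 of the 45 genes rose with H2O2 and none fell, against 4.96 % of 13543 genes tested called higher and 6.11 % lower. The median log2 fold change was 0.66, all 45 changes were above 0 and 23 of the 24 had a log2 fold change of at least 0.6, as did 4.26 % of genes tested. The H2O2 libraries lay above all untreated ones for 31 of 45 genes, as for 18.3 % of genes tested. All 24 had also risen in control cells, so the shared genes were 66.7 % of those called in control cells and 100 % of those called in NRF2 ΔC cells. With the replicate block 42 rose (21.9 % of genes tested did) and in DESeq2 28 (7.85 %). The count depended on single libraries. It was 2 without untreated replicate 2 or H2O2 replicate 2, 9 without H2O2 replicate 3, 10 without untreated replicate 3, 16 without untreated replicate 1 and 35 without H2O2 replicate 1.

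NACET raised fewer of them. In control cells 5 genes rose, DKC1, RRS1, PNO1, UTP15 and RRP12, with log2 fold changes between 0.48 and 0.62, against 1.91 % of 13696 genes tested called higher, 1.76 % lower and 3.67 % in either direction. The median was 0.27, 44 of 45 changes were above 0, and 24 genes had an unadjusted p under 0.05 (20.8 % of genes tested had). The NACET libraries lay above all untreated ones for 24 of 45 genes, as for 12.8 % of genes tested. With H2O2, against the same untreated samples, their log2 fold changes were 0.82, 0.78, 0.92, 0.89 and 0.86. With the replicate block 35 rose (20.1 % of genes tested did) and in DESeq2 14 (4.32 %). None was called without untreated replicate 1, 2 or 3 or NACET replicate 1 or 2, and 3 were called without NACET replicate 3.

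In NRF2 ΔC cells none of the 45 genes was called with NACET in edgeR, against 0.48 % of 13542 genes tested called higher, 0.953 % lower and 1.43 % in either direction. At an unadjusted p under 0.05 there were 14 (18.6 % of genes tested), and DESeq2 called 5 (3.35 %). The median log2 fold change was 0.23 and 42 of 45 changes were above 0. With the replicate block 27 rose, against 16 % of genes tested. The libraries of NACET lay above all untreated ones for 19 of 45 genes, as for 13.3 % of genes tested.

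MYC, which drives transcription of ribosome biogenesis genes, was not called with either treatment. It had 330.1, 273.3 and 365 CPM in untreated control cells, 316.8, 311.3 and 380.6 with H2O2 and 324, 333.3 and 422 with NACET. These groups overlapped. In NRF2 ΔC cells it had 271.8, 363.9 and 349.3 CPM untreated, 328.4, 509.9 and 491.3 with H2O2 and 331.7, 411.2 and 430.9 with NACET, and here too the groups overlapped, with replicate 1 the lowest of each. With H2O2 the log2 fold change of MYC was 0.062 ± 0.13 (SE) in control cells (edgeR adjusted p = 0.79) and 0.41 ± 0.2 in NRF2 ΔC cells (edgeR adjusted p = 0.203). The second was called with the replicate block (edgeR adjusted p = 0.000713) and without H2O2 replicate 1, where it was 0.60. With NACET it was 0.17 ± 0.15 in control cells (edgeR adjusted p = 0.575, 0.0172 with the block) and 0.23 ± 0.15 in NRF2 ΔC cells (edgeR adjusted p = 0.472, 0.0111 with the block).

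All 4 RNA polymerase I genes rose with H2O2 in control cells and 2 of 4, POLR1B and POLR1C, in NRF2 ΔC cells. Of all genes tested 7.06 % and 4.96 % rose in these lines. In NRF2 ΔC cells DESeq2 and the replicate block called all 4 (7.85 % and 21.9 % of genes tested). The H2O2 libraries of all 4 lay above the untreated ones in both lines (18 % and 18.3 % of genes tested). POLR1B (hg19 chr2:113299492-113337395, plus strand), which encodes the second largest catalytic subunit, had 46.02, 44.65 and 47.28 CPM in untreated control cells, 74.73, 78.83 and 65.67 with H2O2 and 59.15, 57.49 and 55.3 with NACET. The levels in NRF2 ΔC cells were 42, 47.44 and 46.21 CPM untreated, 94.98, 92.22 and 72.41 with H2O2 and 63.12, 60.29 and 63.82 with NACET. In both lines the 3 groups were apart, with NACET between the others. The rise with H2O2 was 0.67 ± 0.093 (log2 scale, SE) in control cells (edgeR adjusted p = 0.00535) and 0.91 ± 0.14 in NRF2 ΔC cells (edgeR adjusted p = 0.00784), and both calls held without any 1 library. With NACET the values were 0.33 ± 0.086 (edgeR adjusted p = 0.0813) and 0.45 ± 0.11 (edgeR adjusted p = 0.0791), called with the block (adjusted p = 1.24e-05 and 0.000372) and in DESeq2 (adjusted p = 0.0309 and 0.00681).

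POLR1C (hg19 chr6:43477440-43530156, plus strand) encodes a subunit that RNA polymerases I and III share. It had 31.17, 34.24 and 38.39 CPM in untreated control cells, 43.49, 46.54 and 50.37 with H2O2 and 31.29, 33.51 and 41.34 with NACET. NRF2 ΔC cells had 30, 37.16 and 41.69 CPM, 53.2, 70.2 and 64.05 and 35.28, 37.24 and 43.4 in the same order. Only the H2O2 libraries stood above the rest of their line, and the NACET libraries overlapped with the untreated ones. The gene overlaps XPO5, YIPF3 and LRRC73 on the opposite strand and counting ignored strand, so some of its reads may belong to these.

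Of the 6 snoRNP and rRNA modification genes 4 rose with H2O2 in control cells (NOP56, NOP58, DKC1 and NOLC1) and 2 in NRF2 ΔC cells (DKC1 and NOLC1). The shares of all genes tested that rose were 7.06 % and 4.96 %. DESeq2 called 4 and 3 of the 6 (8.76 % and 7.85 % of genes tested) and the replicate block 5 and 5 (24.1 % and 21.9 %). DKC1 (hg19 chrX:153991017-154005964, plus strand), the pseudouridine synthase of box H/ACA snoRNPs, had 86.39, 114.2 and 118.6 CPM in untreated control cells, 175.7, 207.3 and 179.9 with H2O2 and 149.3, 168.3 and 168.9 with NACET. The edited line had 94.92, 127.7 and 145.5 CPM, 194.6, 248.3 and 219.9 and 164.6, 184.7 and 193.3. Both treatments lay above all untreated libraries in both lines. The rise with NACET in control cells, 0.62 ± 0.13 (log2 scale, SE), was the largest among the 45 (edgeR adjusted p = 0.0478), but its call was lost without any 1 of the 6 libraries, at values between 0.49 and 0.71. Its change with NACET in NRF2 ΔC cells was 0.54 ± 0.16 (edgeR adjusted p = 0.138, 4.18e-05 with the block). With H2O2 it rose by 0.82 ± 0.13 in control cells (edgeR adjusted p = 0.0085) and by 0.82 ± 0.18 in NRF2 ΔC cells (edgeR adjusted p = 0.024).

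FBL (hg19 chr19:40325098-40337019, minus strand) encodes fibrillarin, the methyltransferase of the box C/D snoRNPs in which NOP56 and NOP58 are core proteins. In edgeR without the replicate block it was not called in any comparison. The block called it lower with H2O2 than with NACET in control cells. It had 143.8, 172.5 and 208.2 CPM in untreated control cells, 143.2, 166.8 and 191.8 with H2O2 and 143, 174.6 and 236.2 with NACET. The levels in NRF2 ΔC cells were 141.6, 200.4 and 240.8 CPM, 145.1, 248.3 and 269.5 and 149.2, 222.5 and 264.2. Within each group the replicates differed by more than the means of the groups of a line did, and the groups overlapped. Its log2 fold change with H2O2 was -0.061 ± 0.15 (SE) in control cells (edgeR adjusted p = 0.827, 95 % interval -0.41 to 0.29) and 0.17 ± 0.26 in NRF2 ΔC cells (edgeR adjusted p = 0.702, -0.43 to 0.76). With NACET it was 0.089 ± 0.2 (edgeR adjusted p = 0.856) and 0.11 ± 0.25 (edgeR adjusted p = 0.862). The replicate block called none of these 4 changes. NAT10, which acetylates rRNA, had log2 fold changes with H2O2 of 0.24 ± 0.08 (SE) in control cells (edgeR adjusted p = 0.0856) and 0.36 ± 0.12 in the edited line (edgeR adjusted p = 0.0869), and its H2O2 libraries lay above all untreated ones in both. The block called both (edgeR adjusted p = 0.00154 and 0.00159) and the value with NACET in control cells, 0.19 (edgeR adjusted p = 0.246, 0.00557 with the block).

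Of the 14 small subunit factors 13 rose with H2O2 in control cells, all but NOC4L, and 10 in NRF2 ΔC cells, all but NOC4L, UTP20, HEATR1 and TSR1. Among all genes tested 7.06 % and 4.96 % rose. With H2O2 DESeq2 called 13 and 11 of the 14 (8.76 % and 7.85 % of genes tested) and the replicate block 14 and 12 (24.1 % and 21.9 %). NACET raised 3 in control cells, PNO1, UTP15 and RRP12, against 1.91 % of genes tested. PNO1 (hg19 chr2:68385020-68403370, plus strand), which binds the small subunit's rRNA until its end is cut, had 20.45, 23.39 and 22.2 CPM in untreated control cells, 40.9, 45.13 and 38.99 with H2O2 and 31.44, 34.51 and 32.57 with NACET. NRF2 ΔC cells had 20.78, 27.08 and 21.95 CPM, 46.57, 61.68 and 44.11 and 32.31, 37.85 and 37.96. In each line all 3 groups were apart. PNO1 rose with H2O2 by 0.92 ± 0.1 (log2 scale, SE) in control cells (edgeR adjusted p = 0.00259) and by 1.10 ± 0.18 in NRF2 ΔC cells (edgeR adjusted p = 0.00871), and both calls held without any 1 library. It rose with NACET by 0.59 ± 0.1 in control cells (edgeR adjusted p = 0.027), a call that held only without NACET replicate 3 and was lost, at values of 0.54 to 0.64, without each of the other 5 libraries. For NACET in NRF2 ΔC cells the change was 0.61 ± 0.14 (edgeR adjusted p = 0.0741, 5.68e-05 with the block).

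RRP12 and RRP9 had, with PNO1, the largest rises with H2O2 in NRF2 ΔC cells. RRP12 (hg19 chr10:99116115-99185833, minus strand), which serves assembly and export of ribosomal subunits, had 38.24, 70.29 and 57.97 CPM in untreated NRF2 ΔC cells, 95.91, 169.9 and 125.7 with H2O2 and 67.72, 85.37 and 78.94 with NACET. It had 46.73, 45.96 and 54.34 CPM, 88.04, 94.44 and 83.67 and 66.06, 66.17 and 71.2 in control cells. RRP9 (hg19 chr3:51967445-51975920, minus strand), a protein of the U3 snoRNP, had 19.07, 34.14 and 29.01 CPM in NRF2 ΔC cells, 37.01, 68.2 and 61.83 with H2O2 and 26.34, 35.21 and 38.97 with NACET, against 27.65, 32.55 and 41.17, 45.85, 50.46 and 51.59 and 31.49, 36.21 and 47.6 in control cells. The H2O2 libraries of both genes lay above all untreated ones in both lines, and the spread between replicates was wider in NRF2 ΔC cells.

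With H2O2 RRP12 rose by 1.21 ± 0.26 (log2 scale, SE) in NRF2 ΔC cells (edgeR adjusted p = 0.0234) and by 0.86 ± 0.097 in control cells (edgeR adjusted p = 0.0026). RRP9 rose by 1.00 ± 0.27 in NRF2 ΔC cells (edgeR adjusted p = 0.0481) and by 0.55 ± 0.14 in control cells (edgeR adjusted p = 0.0401). The call of RRP12 in NRF2 ΔC cells was lost without untreated replicate 2 (1.42) or 3 (1.25) or H2O2 replicate 2 (0.98) or 3 (1.24). The call of RRP9 there was lost without any library but H2O2 replicate 1, at values from 0.82 to 1.19. RRP12 also rose with NACET in control cells by 0.48 ± 0.1 (edgeR adjusted p = 0.0446). The changes of RRP9 with NACET, 0.20 in the control line and 0.27 in the edited line, and of RRP12 in the edited line, 0.46, were called only with the block (edgeR adjusted p = 0.0208, 0.0295 and 0.000698).

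NOP14, WDR43, DDX10 and BYSL rose with H2O2 in both lines and were not called with NACET. NOP14 (hg19 chr4:2939660-2965133, minus strand), a factor of the small subunit processome, had 62.29, 63.03 and 72.62 CPM in untreated control cells, 89.16, 97.04 and 94.16 with H2O2 and 58.9, 68.08 and 68.81 with NACET, and 62.83, 78.4 and 81.26, 99.92, 126.7 and 113.2 and 61.74, 71.13 and 71.63 in NRF2 ΔC cells. Its NACET libraries overlapped with the untreated ones in both lines, and its H2O2 libraries lay above both. WDR43 (hg19 chr2:29117533-29171085, plus strand), of the complex that joins the rRNA precursor first, had 92.12, 108.9 and 109.5 CPM, 164.2, 191.4 and 166.7 and 120.8, 133.7 and 124.5 in control cells and 94.73, 113.9 and 122.6, 193.7, 215.6 and 182 and 124.3, 147.1 and 140.3 in NRF2 ΔC cells. Its 3 groups were apart in both lines.

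DDX10 (hg19 chr11:108535785-108811726, plus strand), an RNA helicase, had 25.21, 26.47 and 28.13 CPM in untreated control cells, 43.49, 47.26 and 45.9 with H2O2 and 33.48, 29.33 and 31.58 with NACET. The levels of DDX10 were 26.1, 29.48 and 31.73 CPM, 47.7, 57.89 and 47.61 and 30.14, 33.56 and 32.62 in NRF2 ΔC cells. BYSL (hg19 chr6:41889237-41900784, plus strand), which encodes bystin, had 31.12, 32.31 and 34.83 CPM, 48.91, 56.43 and 54.04 and 35.97, 37.43 and 44.23 in control cells and 28.97, 41.62 and 40.08, 58.54, 90.22 and 71.95 and 35.62, 46.87 and 47.65 in NRF2 ΔC cells. For both genes the NACET libraries lay above the untreated ones in control cells and overlapped with them in NRF2 ΔC cells. With the replicate block, edgeR called WDR43, DDX10 and BYSL with NACET in control cells (adjusted p = 4.97e-06, 0.00416 and 0.00107), and WDR43 and BYSL in NRF2 ΔC cells (adjusted p = 0.00342 and 0.0418). The log2 fold changes of the 4 genes with NACET lay between -0.14 and 0.30.

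Of the 15 large subunit factors 12 rose with H2O2 in control cells, all but NOC2L, BOP1 and PES1, and 8 in NRF2 ΔC cells, NOP2, NOP16, RRP1B, RRS1, WDR12, GNL2, GNL3 and NIP7. Among all genes tested 7.06 % and 4.96 % rose in edgeR. DESeq2 also called 12 and 8 (8.76 % and 7.85 % of genes tested), and the replicate block all 15 in both lines (24.1 % and 21.9 %). BOP1, PES1 and WDR12 form 1 complex. WDR12 rose with H2O2 by 0.61 ± 0.079 (log2 scale, SE) in control cells (edgeR adjusted p = 0.00429), where BOP1 and PES1 had 0.48 and 0.30 (edgeR adjusted p = 0.114 and 0.0911). The replicate block called all 3 with H2O2 in both lines, BOP1 at 0.0121 and 0.000328 and PES1 at 9.11e-05 and 8.96e-07 (edgeR adjusted p, control and NRF2 ΔC cells). NOP2 (hg19 chr12:6666029-6677857, minus strand), an rRNA cytosine methyltransferase, had 42.42, 51.36 and 55.8 CPM in untreated control cells, 93.23, 103.1 and 86.56 with H2O2 and 70.04, 72.52 and 67.16 with NACET. The edited line had 45.22, 63.08 and 65.99 CPM, 96.94, 132.1 and 109.1 and 77.29, 80.81 and 88.58. The 3 groups were apart in both lines. NOP2 rose with H2O2 by 0.92 ± 0.12 (log2 scale, SE) in control cells (edgeR adjusted p = 0.00429), which held without any 1 library, and by 0.93 ± 0.18 in NRF2 ΔC cells (edgeR adjusted p = 0.0172). With NACET it was not called, at 0.50 ± 0.12 in control (edgeR adjusted p = 0.062, 7.74e-12 with the block) and 0.48 ± 0.16 in NRF2 ΔC cells (edgeR adjusted p = 0.159, 0.000309 with the block).

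RRS1, which helps bring the 5S ribonucleoprotein into the large subunit, was the large subunit factor that rose with NACET. It had 31.88, 40.56 and 39.21 CPM in untreated control cells, 53.63, 72.39 and 65.81 with H2O2 and 53.38, 60.35 and 54.81 with NACET, and 31.36, 56.09 and 49.85, 68.05, 108.1 and 80.83 and 60.03, 75.91 and 68.52 in NRF2 ΔC cells. H2O2 and NACET libraries overlapped and lay above the untreated ones in both lines. RRS1 rose with NACET by 0.60 ± 0.12 (log2 scale, SE) in control cells (edgeR adjusted p = 0.0381), but the call was lost without any 1 of the 6 libraries, at values from 0.50 to 0.67. Its change with NACET in NRF2 ΔC cells was 0.55 ± 0.21 (edgeR adjusted p = 0.211, 0.000169 with the block). With H2O2 it rose by 0.78 ± 0.14 in control cells (edgeR adjusted p = 0.0114) and 0.88 ± 0.24 in NRF2 ΔC cells (edgeR adjusted p = 0.0491).

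Of the 5 nucleolar chaperones NCL, LYAR and DDX21 rose with H2O2 in control cells and LYAR and DDX21 in NRF2 ΔC cells. The edgeR shares of all genes tested were 7.06 % and 4.96 %. The replicate block called all 5 higher in both lines (24.1 % and 21.9 % of genes tested). DDX21 (hg19 chr10:70715891-70744824, plus strand), an RNA helicase of the nucleolus, had 149.4, 178.1 and 154.4 CPM in untreated control cells, 325, 365.4 and 280.8 with H2O2 and 245.5, 248.1 and 192.3 with NACET. NRF2 ΔC cells had 163.5, 181.2 and 184.7 CPM, 357.4, 340.4 and 241 and 249.9, 236.3 and 218.3. Both treatments lay above the untreated libraries. With H2O2 DDX21 rose by 1.01 ± 0.12 (log2 scale, SE) in control cells, more than any other of the 45 (edgeR adjusted p = 0.00323), and the call held without any 1 library. It rose in NRF2 ΔC cells by 0.80 ± 0.16 (edgeR adjusted p = 0.0198). With NACET the changes were 0.52 ± 0.13 in control (edgeR adjusted p = 0.073, 2.28e-15 with the block) and 0.39 ± 0.11 in NRF2 ΔC cells (edgeR adjusted p = 0.119, 0.00083 with the block).

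NCL (hg19 chr2:232318242-232348352, minus strand) encodes nucleolin and NPM1 (hg19 chr5:170814120-170838814, plus strand) nucleophosmin, abundant nucleolar proteins. NCL had 879.5, 1011 and 1149 CPM in untreated control cells, 1322, 1486 and 1483 with H2O2 and 1087, 1184 and 1353 with NACET, and 878.9, 1125 and 1357, 1353, 1855 and 1688 and 1077, 1390 and 1462 in NRF2 ΔC cells. Its H2O2 libraries lay above the untreated ones in control cells, and in NRF2 ΔC cells H2O2 replicate 1 lay just below untreated replicate 3. NCL rose with H2O2 by 0.50 ± 0.12 (log2 scale, SE) in control cells (edgeR adjusted p = 0.0351), a call that held only without untreated replicate 3 and was lost without each of the other 5 libraries, at 0.41 to 0.55. Its change in NRF2 ΔC cells was 0.52 ± 0.19 (edgeR adjusted p = 0.111, 1.67e-05 with the block), and it was called without H2O2 replicate 1, at 0.65. With NACET the changes were 0.26 ± 0.14 (edgeR adjusted p = 0.325, 0.000329 with the block) and 0.21 ± 0.19 (edgeR adjusted p = 0.616, 0.0199 with the block).

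NPM1 had 286.3, 349.7 and 436.6 CPM in untreated control cells, 364.7, 419.4 and 506.6 with H2O2 and 303, 348.3 and 467 with NACET, and 285.2, 385.6 and 499.5, 386.3, 603.6 and 549.6 and 279.5, 468.2 and 469.5 in NRF2 ΔC cells. The groups overlapped in both lines. With H2O2 its log2 fold change was 0.27 ± 0.17 (SE) in control cells (edgeR adjusted p = 0.327, 0.000117 with the block) and 0.37 ± 0.23 in NRF2 ΔC cells (edgeR adjusted p = 0.313, 0.0012 with the block). With NACET it was 0.071 ± 0.2 (edgeR adjusted p = 0.887) and 0.035 ± 0.25 (edgeR adjusted p = 0.961), and the block called neither. The hg19 annotation names 49 pseudogenes after NPM1, and reads mapped to several places were not counted, so its level is uncertain.

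**Figure D3:**
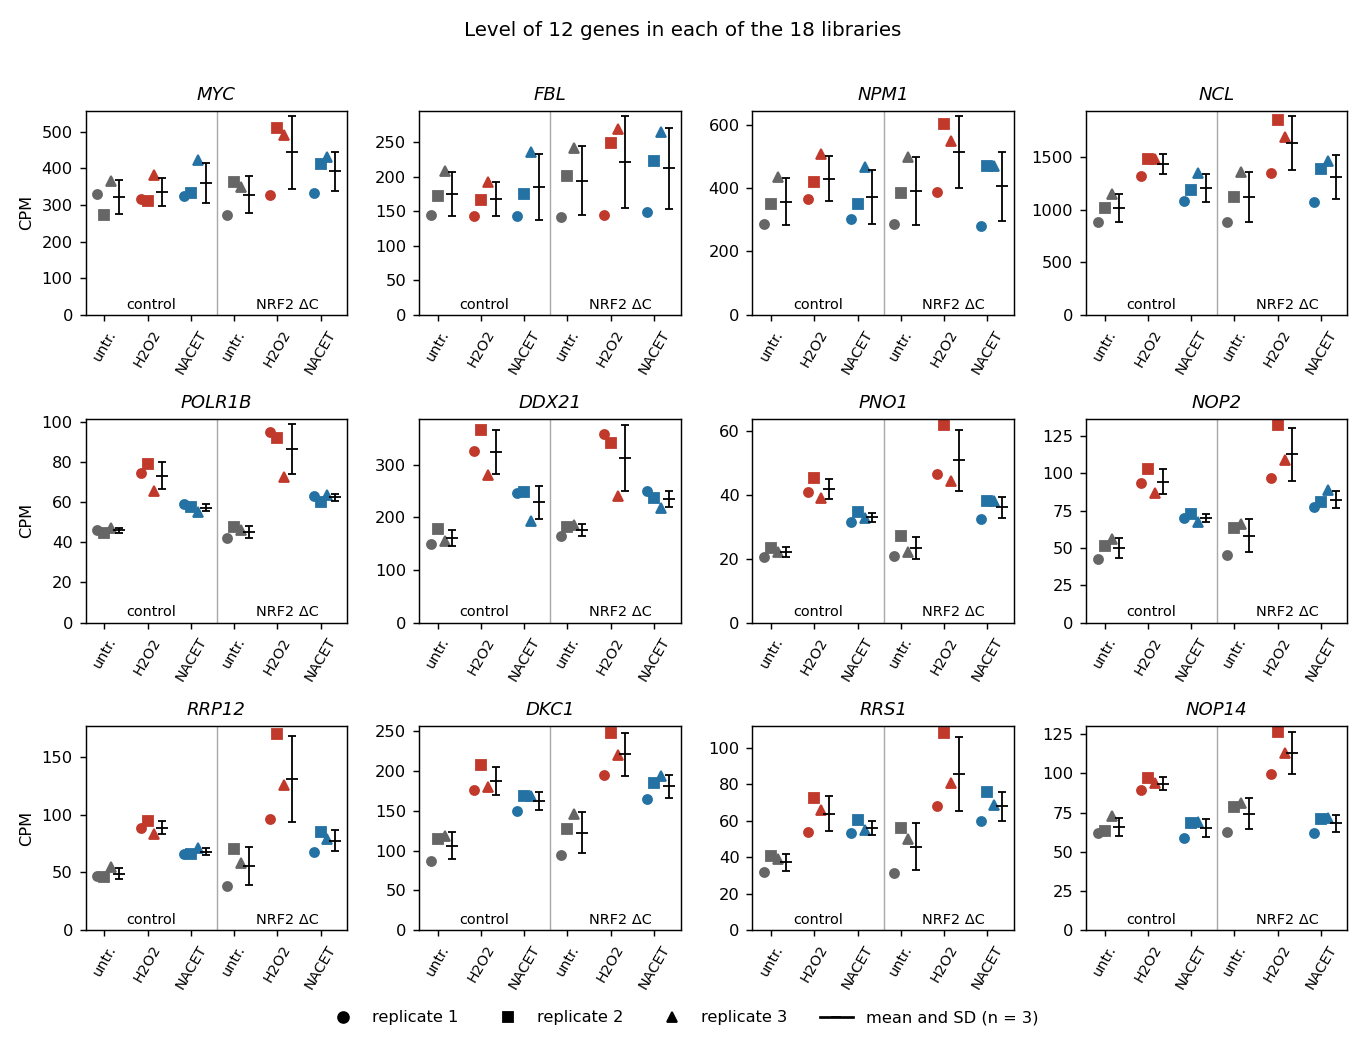
CPM of 12 of the genes in each of the 18 libraries, on axes that start at 0. Symbols are replicates 1, 2 and 3, and the bar beside them is the mean and SD of 3. The treated libraries of POLR1B, PNO1 and NOP2 stand above the untreated ones, while in MYC, FBL and NPM1 the groups overlap.

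A direct comparison of the treatments showed higher levels with H2O2 than with NACET for some of the genes. In control cells 5 of 45 were called higher with H2O2 and none lower, DDX10, NOP14, WDR43, NOP2 and RRP12, against 2.42 % of 13581 genes tested called higher, 3.47 % lower and 5.88 % in either direction. DDX10 was higher by 0.51 ± 0.093 (log2 scale, SE, edgeR adjusted p = 0.0215), NOP14 by 0.50 ± 0.092 (edgeR adjusted p = 0.0231) and WDR43 by 0.44 ± 0.093 (edgeR adjusted p = 0.0363). For these 3 genes the libraries of the 2 treatments did not overlap, as for 26 of the 45 and 15.7 % of genes tested. The median over the 45 was 0.27 and 43 were above 0, as were 48.9 % of genes tested. With the replicate block 36 were higher (20.3 % of genes tested were) and 1, FBL, was lower (edgeR adjusted p = 0.0474, 21.2 % of genes tested), and DESeq2 called 10 (4.68 %). None was called without H2O2 replicate 1, 2 or 3 or NACET replicate 2, and 2 were called without NACET replicate 1.

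In NRF2 ΔC cells 8 of 45 were higher with H2O2 than with NACET, BYSL, NOP14, POLR1C, DDX10, WDR43, NOLC1, WDR75 and WDR12, against 4.1 % of 13489 genes tested higher and 5.96 % lower. BYSL was higher by 0.74 ± 0.19 (log2 scale, SE, edgeR adjusted p = 0.0471), NOP14 by 0.71 ± 0.13 (edgeR adjusted p = 0.0172) and POLR1C by 0.67 ± 0.15 (edgeR adjusted p = 0.0303). The median was 0.37 and all 45 were above 0, as were 49.1 % of genes tested. NOP14, DDX10 and WDR43 were called in both lines, 60 % of the genes called in control cells and 37.5 % of those in NRF2 ΔC cells. With the replicate block 41 were higher, against 23.7 % of genes tested, and DESeq2 called 13 (6.72 %). The count was 17 without H2O2 replicate 1, 3 without H2O2 replicate 3, 1 without NACET replicate 1 and 0 without H2O2 replicate 2 or NACET replicate 2 or 3.

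No difference between the 2 untreated lines was called in these genes. None of the 45 was called in edgeR (1, RRP1B, had an unadjusted p under 0.05, as had 13.7 % of genes tested) or in DESeq2, against 4.07 % of 13710 genes tested called in either direction. The log2 fold changes of NRF2 ΔC against control cells ranged from -0.30 (RRP9) to 0.38 (NOC4L), with a median of 0.13 over the 45 and 38 above 0, as were 52.5 % of genes tested. Those of MYC, POLR1B and NCL were 0.023 (95 % interval -0.32 to 0.37), -0.024 (-0.26 to 0.21) and 0.14 (-0.26 to 0.54). The interval of POLR1B excludes a difference as large as its rise with H2O2.

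Whether the response differed between the lines was tested as an interaction over 12 samples. With H2O2 none of the 45 was called in edgeR, none had an unadjusted p under 0.05 and DESeq2 called none, against 3 of 13987 genes tested (0.0214 %). The difference in log2 fold change, NRF2 ΔC minus control, had a median of 0.11 over the 45 and ranged from -0.31 (UTP20) to 0.47 (RRP9). It was 0.37 ± 0.26 (SE) for MYC (edgeR adjusted p = 0.919, 95 % interval -0.19 to 0.92), 0.26 for POLR1B (-0.095 to 0.61), 0.19 for PNO1 (-0.25 to 0.64) and -0.20 for DDX21 (-0.65 to 0.25). With the replicate number as a block within each line RRP9 was called (edgeR adjusted p = 0.0417), as were 6.91 % of genes tested. The intervals leave room for differences as large as many of the responses themselves, so an equal response of the lines is not shown.

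With NACET the interaction called none of the 45 in edgeR, none had an unadjusted p under 0.05 and DESeq2 called none, against 9 of 14002 genes tested (0.0643 %). The differences ranged from -0.21 (HEATR1) to 0.12 (POLR1B), with a median of -0.04. The interval for POLR1B was -0.14 to 0.38, and for PNO1, with a difference of 0.022, it was -0.34 to 0.38.

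Other genes of the pathway gave the wider view of the H2O2 response. Of 109 other ribosome biogenesis factors 58 rose in control cells and none fell, with a median log2 fold change of 0.43, and 36 rose in NRF2 ΔC cells, with a median of 0.51, against 7.06 % and 4.96 % of all genes tested. The replicate block called 97 and 94 higher (24.1 % and 21.9 % of genes tested) and DESeq2 62 and 55 (8.76 % and 7.85 %). RIOK1, a kinase of late small subunit assembly, had 36.36, 36.81 and 33.94 CPM with H2O2 in control cells against 17.74, 19.53 and 20.88 CPM untreated (0.88 ± 0.1, log2 scale, SE, edgeR adjusted p = 0.00283). NACET raised 4 of the 109 in control cells, with a median of 0.19, and 0 in NRF2 ΔC cells (edgeR), against 1.91 % and 0.48 % of all genes tested. With NACET DESeq2 called 10 and 4 higher (4.32 % and 3.35 % of genes tested) and the replicate block 60 and 44 (20.1 % and 16 %).

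Cytosolic ribosomal proteins are the building blocks of the finished subunits. Of 78 tested 1 rose with H2O2 in each line, against 7.06 % of all genes tested in control and 4.96 % in NRF2 ΔC cells, RPL36A in control cells (0.60 ± 0.16, log2 scale, SE, edgeR adjusted p = 0.0397) and RPL9 in NRF2 ΔC cells (0.79 ± 0.14, edgeR adjusted p = 0.0123). The median was 0.06 in control cells, where the replicate block called 10 of the 78 higher, against 24.1 % of genes tested. The median in NRF2 ΔC cells was 0.34, with 77 of 78 above 0. There the block called 72 higher (21.9 % of genes tested) and DESeq2 3 (7.85 %). None was called with NACET in either line by edgeR or DESeq2, and none had an unadjusted p under 0.05. With NACET the block called 2 higher in the control line (20.1 % of genes tested) and 1 in the edited line (16 %). Many ribosomal protein genes have near-identical pseudogenes, so counts of unique reads are uncertain for them.

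The E-box genes can be set beside the rest. With H2O2 in control cells 10 of the 13 genes with an E-box rose, with a median log2 fold change of 0.51. Of the 23 matched genes without one 19 rose, with a median of 0.61, against 7.06 % of all genes tested. The counts in NRF2 ΔC cells were 8 of 13 (median 0.62) and 12 of 23 (median 0.76), against 4.96 % of genes tested. Among the E-box genes in control cells the values with H2O2 ran from -0.06 for FBL to 0.92 for PNO1. With NACET 1 of 13 and 2 of 23 rose in control cells (medians 0.25 and 0.26), against 1.91 % of genes tested. In NRF2 ΔC cells NACET raised 0 of 13 and 0 of 23 (medians 0.21 and 0.23), against 0.48 % of genes tested.

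RNA polymerase I factors other than these subunits were mixed. With H2O2 4 of 17 rose and 1 fell in control cells, and 3 rose and 1 fell in NRF2 ΔC cells. Of all genes tested 7.06 % rose and 6.16 % fell in the control line, and 4.96 % rose and 6.11 % fell in the edited line. The replicate block called 11 higher and 3 lower in control cells and 7 higher and 1 lower in NRF2 ΔC cells. Of all genes tested it called 24.1 % and 21.9 % higher, and 3372 of 13691 and 3344 of 13543 lower. PTRF, which releases RNA polymerase I transcripts and is also known as the caveolar coat protein cavin-1, fell from 242.8, 230.1 and 201.7 CPM to 130.4, 114.4 and 108 CPM in control cells (-0.93 ± 0.11, log2 scale, SE, edgeR adjusted p = 0.00309). UBTF, which opens rRNA genes for transcription, was the factor called with NACET in control cells in edgeR, where 1.91 % of genes tested rose. It rose to 205.6, 211.8 and 226.4 CPM from 163.1, 165.4 and 162.1 CPM (0.40 ± 0.084, edgeR adjusted p = 0.0446). With NACET in control cells the block called 4 of the factors higher and 2 lower, against 20.1 % and 2817 of 13696 genes tested.

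Around MYC, 12 partners were tested. With H2O2 in control cells MXD1, which competes with MYC for MAX, rose (0.72 ± 0.13, log2 scale, SE, edgeR adjusted p = 0.0128), as did FBXW7, a ubiquitin ligase subunit that marks MYC for degradation, while MXI1, MNT and MXD4, which also pair with MAX, fell, against 7.06 % of all genes tested higher and 6.16 % lower. MAX had 60.58, 60.1 and 65.52 CPM with H2O2 and 51.84, 50.15 and 52.29 CPM untreated, groups that did not overlap, but was not called (0.27 ± 0.082, edgeR adjusted p = 0.0617). MXD1 and FBXW7 also rose in NRF2 ΔC cells, where MXD3 fell. There the block called 4 partners higher and 4 lower, against 21.9 % and 3344 of 13543 genes tested. With NACET in control cells MNT (-0.64 ± 0.1, edgeR adjusted p = 0.0204) and MXD4 (-0.55 ± 0.12, edgeR adjusted p = 0.0443) fell, as did 1.76 % of genes tested. No partner was called with NACET in NRF2 ΔC cells in edgeR, while DESeq2 called 2 lower (486 of 13542 genes tested). The block called 3 partners higher and 5 lower there, against 16 % and 2449 of 13542 genes tested. Of 18 MYC targets outside the ribosome 3 rose with H2O2 in control cells and 1 fell, LDHA, the lactate dehydrogenase gene (-1.18 ± 0.18, edgeR adjusted p = 0.00729), and 2 rose and 1 fell in NRF2 ΔC cells, where 4.96 % of all genes tested rose and 6.11 % fell. DESeq2 called 8 and 4 of the targets higher (8.76 % and 7.85 % of genes tested) and the replicate block 15 and 10 (24.1 % and 21.9 %). NACET raised 1 target in control cells and 0 in NRF2 ΔC cells in edgeR (1.91 % and 0.48 % of genes tested). With NACET DESeq2 called 4 and 3 of the targets higher (4.32 % and 3.35 %) and the block 12 and 8 (20.1 % and 16 %).

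Of 10 host genes of small nucleolar RNAs 3 rose with H2O2 in control cells, with a median log2 fold change of 0.55, and 6 in NRF2 ΔC cells, with a median of 1.00, against 7.06 % and 4.96 % of all genes tested. DESeq2 called 4 and 8 (8.76 % and 7.85 % of genes tested), and the replicate block all 10 in both lines (24.1 % and 21.9 %). SNHG15 had 20.54, 21.65 and 27.31 CPM untreated and 35.36, 39.03 and 38.69 CPM with H2O2 in control cells, and 16.39, 23.08 and 24.76 CPM against 43.23, 83.29 and 60.8 CPM in NRF2 ΔC cells (1.52 ± 0.25, log2 scale, SE, edgeR adjusted p = 0.00957). None was called with NACET in edgeR in either line. There DESeq2 called 1 and 2 higher (control, then NRF2 ΔC, 4.32 % and 3.35 % of genes tested) and the block 6 and 4 (20.1 % and 16 %).

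Of 11 proliferation genes none was called with H2O2 in control cells by edgeR (DESeq2 called 2 lower), with a median log2 fold change of -0.26, and 6 fell in NRF2 ΔC cells (as did 6.11 % of genes tested), with a median of -1.03, led by MKI67, a marker of cycling cells (-2.04 ± 0.24, edgeR adjusted p = 0.00298). The replicate block called 7 of them lower and 1 higher in the control line, and 10 lower and 1 higher in the edited line. Of all genes tested it called 3372 of 13691 and 3344 of 13543 lower, and 24.1 % and 21.9 % higher. DESeq2 called 1189 of 13691 genes tested lower in control cells. For H2O2 against NACET edgeR called 4 and 7 of the 11 lower in control and NRF2 ΔC cells, against 3.47 % and 5.96 % of genes tested. In the H2O2 interaction edgeR called none, while DESeq2 and the replicate block each called 4 lower, against 61 and 125 of 13987 genes tested. The part of these proliferation genes in the changes of the 45 genes was not tested.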

How the data were processed

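Single-end mRNA libraries (TruSeq) of 18 samples were mapped by the authors with TopHat 2.1.0 to hg19 and counted per gene with HTSeq 0.11.2, without regard to strand and with reads of ribosomal RNA genes removed. The deposited files hold raw whole-number counts per gene symbol, and the gene annotation is not given in the sources used here. The 5 summary lines of each file were left out: no feature, 15 to 17.5 % of a library; ambiguous, 0.955 to 1.18 %; not unique, 8.24 to 10.4 %. Counts on genes, 16673306 to 25951154 per library, set the depth, and the spread of 3 replicates limits the precision more.

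From these counts, edgeR 4.0.16 in R 4.3.3 was run with filterByExpr, TMM normalisation and the quasi-likelihood test, on the 6 samples of each of 7 pairs of groups and on 12 samples for each of 2 interactions, with Benjamini-Hochberg adjustment over all genes tested. Scripts were tested on simulated data. The 95 % intervals use the t distribution with edgeR's degrees of freedom. CPM are TMM-scaled counts at a common library size.

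The 45 genes and the other lists were chosen with earlier results of these data known. Per-sample values are given for MYC, POLR1B, FBL, NCL and NPM1 and for the 3 called genes with the largest change in each comparison among those with a mean of at least 1 CPM. Of other lists up to 2 called genes per comparison are named. The MYC partners named beyond that were chosen after their values were seen. One list of genes and 1 marker are not reported here.

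Alternatives were DESeq2 1.42.0, other scaling, other filters, 1 fit of all 18 samples, a fold limit of 0.6, the replicate number as a block and leaving out each sample. The block within each line was added after the data were seen. The deviations of samples from their group means correlated between same-numbered samples of a line (r from 0.447 to 0.842 in 18 pairs), while between the lines r was -0.22 to 0.69 in 3 pairs. The labels give the numbers and not what they mark. Promoter sequences are from RefSeq on GRCh38.p14, and gene coordinates from the GENCODE annotation on GRCh37 (hg19). The 2 builds were not mixed.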

Additional observations from a re-analysis of the deposited data

Results flagged for a closer look

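The log2 fold changes of FBL with H2O2 had opposite signs in the 2 lines. The value was -0.06 in control cells, where H2O2 was lower than untreated in all 3 pairs of the same replicate number, and 0.17 in NRF2 ΔC cells, where it was higher in all 3. The difference itself, 0.24 ± 0.34 (SE), was not called (edgeR's quasi-likelihood interaction test, adjusted p = 0.933).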

How the results depend on the processing

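Counts of called genes among the 45 depended on the setting more than the direction did. A fold limit of 0.6 left 20 genes for H2O2 in control cells and 2 for NACET there, and 0 and 4 for H2O2 against NACET in control and NRF2 ΔC cells. Of all genes tested it left, in either direction, 867 of 13691, 376 of 13696, 499 of 13581 and 1121 of 13489 in the same order. DESeq2 called 14 with NACET in control cells, 5 with NACET in NRF2 ΔC cells, and 10 and 13 for H2O2 against NACET. A fit of all 18 samples called 8 with NACET and 19 for H2O2 against NACET in NRF2 ΔC cells, and no filter on low counts left 3 for H2O2 against NACET in control cells. For these fits and those without 1 library the shares of all genes tested are not given here. Their counts therefore cannot be weighed against such shares. When same-numbered samples were blocked (replicate block), 35 genes were called with NACET in control cells, 42 with H2O2 and 27 with NACET in NRF2 ΔC cells, and 37 and 41 for H2O2 against NACET in control and NRF2 ΔC cells. The block within each line gave 1 call (RRP9) in the H2O2 interaction and changed no other count of the 45 by over 1.5 times. The cause of these differences was not tested. Leaving out 1 library gave 14 to 34 called genes for H2O2 in control cells and 0 to 3 for NACET there, 2 to 35 with H2O2 and 0 with NACET in NRF2 ΔC cells, 0 to 6 and 0 to 17 for H2O2 against NACET, and 0 between untreated lines and in both interactions. The medians over the 45 then stayed between 0.51 and 0.63, 0.22 and 0.35, 0.57 and 0.77, 0.13 and 0.31, 0.22 and 0.30, 0.28 and 0.47, 0.049 and 0.24, 0.009 and 0.19, and -0.15 and 0.075 in the same order. Values near 0 changed sign without 1 library: MYC with H2O2 in control cells (-0.043 to 0.16), FBL with H2O2 (-0.18 to 0.082 in control, -0.005 to 0.41 in NRF2 ΔC cells) and NACET (-0.13 to 0.24 and -0.086 to 0.31), and NPM1 with NACET (-0.12 to 0.24 and -0.13 to 0.25). Other single genes kept direction and call in 444 fits, gained the call in 16 and lost it in 60.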
